A study of Mus musculus with 94 samples.

Results

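The 10 genes described here belong to the high-affinity IgE receptor FcεRI and the signalling steps next to it, and they were followed through 94 single mouse bone marrow cells sorted as basophils. They are Fcer1a, Ms4a2 and Fcer1g, which encode the α, β and γ chains of the receptor, and Lyn, Syk, Btk, Lat, Lat2, Plcg2 and Inpp5d, which encode kinases, adaptors, a phospholipase and a phosphatase. The genes were chosen by name from the 46078 gene identifiers of the count table, of which 45143 had a symbol, and all 10 were found in it. Between cells sorted with and without surface CD34, the chain genes were close on gene reads, with log2 folds of 0.08, 0.43 and -0.12. Btk and Lat2 were lower in CD34-positive cells, at -1.41 and -1.13, and of the other signalling genes Lyn, Syk, Lat and Inpp5d had folds below 0 and Plcg2 a fold above 0. Scaling by spike-in reads gave all 10 genes a higher fold: it turned Fcer1g, Lyn, Syk, Lat and Inpp5d above 0 and left Btk and Lat2 at -0.45 and -0.16, within 2-fold.

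Female C57BL/6 mice gave the bone marrow. Both gates took live lineage-negative (Lin-), Sca1-negative cells that carried FcεRI on the surface, and they differed in CD34, a surface protein of blood progenitors: 47 cells were CD34-positive and 47 were CD34-negative. The design names 3 mice, and no genotype or treatment other than the strain is given. Cells are not assigned to mice in the labels, which makes each gate 1 sample, so that cells are not replicates and the differences below have no replicate check and no test.

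FcεRI holds IgE on basophils and mast cells. The α chain binds the Fc part of IgE, while the β chain and a pair of γ chains carry the immunoreceptor tyrosine-based activation motifs (ITAMs) that pass the signal on. When antigen crosslinks bound IgE, the Src-family kinase Lyn phosphorylates these motifs, Syk docks on them and phosphorylates the adaptors LAT and LAT2, phospholipase Cγ and Btk act at these adaptors to start the calcium signal, and the phosphatase SHIP1 (Inpp5d) limits the phosphoinositide signal. Since surface FcεRI was part of both gates, the presence of the chain transcripts is what the sort selected for.

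In each gate 46 cells had at least 50000 gene reads and were kept. Their gene reads ranged from 262944 to 938322 in the CD34-negative and from 374011 to 1154738 in the CD34-positive gate. Per ERCC spike-in read they had a median of 6.87 and 14.4 gene reads. Levels are reads per 1e+06 gene reads (CPM), from reads summed over the cells of a gate unless a cell is named, and ranges in brackets after a level or fold are exact Poisson 95% intervals that cover counting error only. Cd34 had 7 reads in CD34-negative cells against 1799 in CD34-positive cells.

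CD34-negative cell 10 went against its label as a basophil. With 262944 gene reads, it had 2 reads of Fcer1a and 2 of Ms4a2, or 7.61 CPM each, where the other 45 cells of its gate had at least 222.9 and 481.3 CPM. Gata2, a transcription factor of basophils and mast cells, was at 3.80 CPM, against 928.5 CPM in the lowest of the others. Its Fcer1g level of 2054 CPM was the highest of the gate. Of the 7 monocyte and dendritic cell markers, Cd74, which encodes the MHC class II invariant chain, stood at 12273 CPM in this cell and at up to 2.41 CPM in the others, and Csf1r, a macrophage growth factor receptor, at 966 CPM, against up to 147.0 CPM in the others. Of the other markers of that list cell 10 had Ly86 at 254.8 CPM, Adgre1 at 91.3 CPM and Fcgr1 at 11.4 CPM, while Cx3cr1 and Siglech had 0 reads, and another CD34-negative cell had Adgre1 at 1707 CPM. The list summed, mostly from Cd74, to 13596 CPM in cell 10, up to 1707 CPM in the other CD34-negative cells and up to 310.3 CPM in the CD34-positive cells. The 8 basophil markers, which include Fcer1a and Ms4a2, summed to 235.8 CPM in cell 10 and to at least 8051 CPM in the other CD34-negative cells. In CD34-positive cells the sum had a median of 90271 CPM, with 5205 CPM in cell 1 and 5518 CPM in the next lowest cell. CD34-positive cell 1 had the lowest Prss34 and Mcpt8 of its gate, at 50.1 and 13.4 CPM, and was kept in all values. Some of the values below are also given without CD34-negative cell 10. Mast cell markers, which matter because mast cells also carry FcεRI, were near 0: Cma1, Mcpt4, Tpsb2, Mrgprb1 and Mrgprb2 had 0 reads in the CD34-negative gate. The mast cell list summed to 7.33 CPM in the CD34-positive gate, with Mrgprb1 and Mrgprb2 at 0, and CD34-positive cell 5 held its highest sum, 284.8 CPM. The other lists summed to 63.7 and 49.4 CPM for B cells, 174.6 and 117.0 CPM for eosinophils, 19.7 and 67.4 CPM for neutrophils and 0.777 and 36.6 CPM for erythroid cells, in CD34-negative and CD34-positive cells. Single cells reached more. In the same order of lists, the highest sums were 506, 1099, 235 and 31.2 CPM among CD34-negative cells. Among CD34-positive cells they were 589, 1496, 472 and 359 CPM, the eosinophil one in cell 34 and the erythroid one in cell 2.

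**Figure D1:**
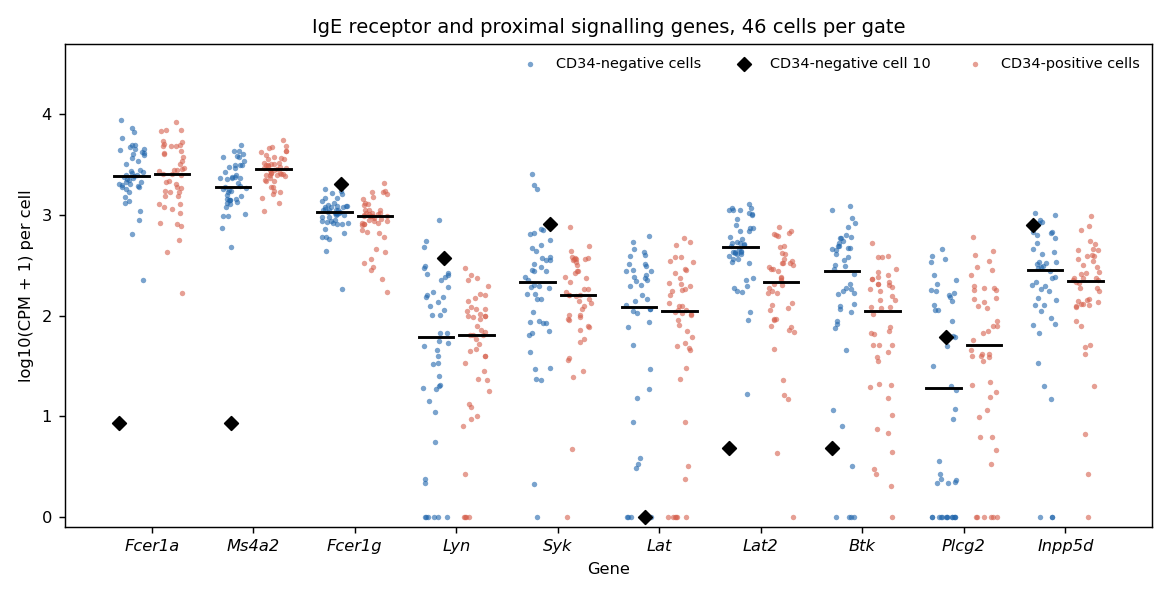
Level of each gene in each of the 46 kept cells per gate, as log10(CPM + 1) on the vertical axis, with CD34-negative cells in blue, CD34-positive cells in red and the gate median as a black bar. The cells of both gates overlap for all 10 genes, and CD34-negative cell 10 (black diamond) lies below all other cells for Fcer1a and Ms4a2 and among the highest for Fcer1g, Lyn, Syk and Inpp5d.

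Fcer1a, the gene of the IgE-binding α chain (ENSMUSG00000005339, minus strand of chr1:173221284-173227214 in GRCm38, the assembly also called mm10), stood at 3012 CPM (2994 to 3031) in CD34-negative and 3185 CPM (3165 to 3206) in CD34-positive cells. Single CD34-negative cells had 7.61 CPM at the lowest, a median of 2449.6 and 8761 CPM at the highest, and CD34-positive cells had 167.2, 2566 and 8351 CPM. The ranges overlapped almost wholly, and 25 of 46 CD34-positive cells lay above the CD34-negative median. The log2 fold, CD34-positive over CD34-negative with 1 CPM added to both, was 0.08 (0.06 to 0.10), and it was -0.00 as a mean of per-cell CPM, 1.05 with ERCC scaling and -0.18 with scran size factors, so no direction holds across scalings.

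Ms4a2 encodes the β chain, which amplifies the signal of the receptor in mast cells and basophils (ENSMUSG00000024680, minus strand of chr19:11615523-11623719). It stood at 2241 CPM (2225 to 2257) in CD34-negative and 3026 CPM (3006 to 3045) in CD34-positive cells. The lowest, median and highest CD34-negative cells had 7.61, 1918 and 4987 CPM, and without cell 10 the lowest had 481.3 CPM. In the CD34-positive gate these were 1096, 2838 and 5598 CPM. The cells of the gates overlapped, but 38 of 46 CD34-positive cells lay above the CD34-negative median and every one of them above 1000 CPM. The log2 fold was 0.43 (0.41 to 0.45), or 0.42 without cell 10, 1.40 with ERCC scaling and 0.19 with scran size factors.

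Fcer1g encodes the γ chain, which other Fc receptors share as their signalling subunit (ENSMUSG00000058715, minus strand of chr1:171229572-171234365). Its levels were 1066 CPM (1055 to 1077) in CD34-negative and 979.7 CPM (968.5 to 990.9) in CD34-positive cells. CD34-negative cells had a lowest value of 181.1, a median of 1061 and a highest of 2054 CPM, the last in cell 10, and CD34-positive cells had 172.2, 974 and 2074 CPM. Both gates thus covered nearly the same range. The log2 fold was -0.12 (-0.15 to -0.09), 0.84 with ERCC scaling and -0.36 with scran size factors, so its direction depended on the scaling.

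The promoters of the chain genes are shown because a motif of the GATA factors, TGATAA or AGATAA on either strand, was searched in them, Gata2 being among the markers above. Each is the 250 bases before the start of the gene in the RefSeq table for GRCm38.p6, on the minus strand, with matches in capitals. Fcer1a is at chr1:173227230-173227479, Ms4a2 at chr19:11623720-11623969 and Fcer1g at chr1:171234350-171234599.
Fcer1a: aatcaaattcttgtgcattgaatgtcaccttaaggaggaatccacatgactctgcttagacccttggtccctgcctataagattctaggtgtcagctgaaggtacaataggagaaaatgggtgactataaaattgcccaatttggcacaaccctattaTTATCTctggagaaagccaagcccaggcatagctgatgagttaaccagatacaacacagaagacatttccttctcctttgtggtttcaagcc
Ms4a2: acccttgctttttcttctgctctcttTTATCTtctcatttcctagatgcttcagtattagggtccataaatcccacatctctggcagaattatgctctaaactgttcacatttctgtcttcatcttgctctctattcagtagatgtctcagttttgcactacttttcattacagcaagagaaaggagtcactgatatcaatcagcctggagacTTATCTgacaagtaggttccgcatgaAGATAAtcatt
Fcer1g: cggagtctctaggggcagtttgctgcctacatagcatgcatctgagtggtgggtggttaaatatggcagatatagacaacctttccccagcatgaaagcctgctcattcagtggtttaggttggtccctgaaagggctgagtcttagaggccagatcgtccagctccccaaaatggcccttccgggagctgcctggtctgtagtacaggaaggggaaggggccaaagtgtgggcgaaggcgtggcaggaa
Fcer1a had 1 match, with its first base 92 bases before the start. Ms4a2 had 3 matches, whose first bases lay 224, 37 and 11 bases before the start, and Fcer1g had none in this window. Promoters were found in the table for 8 of the 10 genes, and 5 of their 9 promoters held a match. Of all 32851 promoters of that length, 5452 or 16.6% did. A match describes the letters only.

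The chains differed in how evenly cells carried them. Among the 257 genes at 500 CPM or more in the CD34-negative gate, Fcer1g had one of the smallest coefficients of variation over cells (SD divided by mean), 0.335, and 98.4% of these genes had a higher one. In the CD34-positive gate Ms4a2 had a coefficient of 0.337, and 98.2% of the 166 genes at that level had a higher one. Fcer1a was more uneven, at 0.609 and 0.665, with 66.9% and 32.5% of those genes above it. Ms4a2 went from 0.508 in CD34-negative cells, or 0.480 without cell 10, to 0.337 in CD34-positive cells. Fcer1g went the other way, from 0.335, or 0.315 without cell 10, to 0.446.

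The levels of the 10 genes were compared with each other per kilobase of annotated exon. On that scale Fcer1a was highest, at 3018 and 3192 CPM per kilobase in CD34-negative and CD34-positive cells, followed by Fcer1g at 1219 and 1121 and Ms4a2 at 797 and 1076. The interquartile ranges over cells of Fcer1a and Fcer1g did not overlap in either gate, and those of Fcer1g and Ms4a2 did. Within a cell, and without cell 10, the ratio of Fcer1a to Ms4a2 per kilobase had a median of 3.94 (range 0.267 to 15.5) in CD34-negative cells and one of 2.40 (0.202 to 9.31) in CD34-positive cells. The ratio of Fcer1g to Ms4a2 had medians of 1.57 and 1.03. Far below the chains came Lat2 at 215.7 and 98.5 CPM per kilobase, whose interquartile range did not reach that of Ms4a2. All other genes next to each other in the order had overlapping ranges. In CD34-negative cells the order went on with Btk, Lat, Inpp5d, Syk, Lyn and Plcg2, from 107.4 down to 20.7 CPM per kilobase, and in CD34-positive cells with Lat, Btk, Inpp5d, Plcg2, Syk and Lyn, from 56.6 to 19.2.

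All 3 kinases were lower in the CD34-positive gate on gene reads, while with scaling by ERCC reads Lyn (0.29) and Syk (0.07) had a fold above 0 and Btk (-0.45) did not. Btk, a Tec-family kinase that phosphorylates phospholipase Cγ (ENSMUSG00000031264, minus strand of chrX:134542336-134583570), had the largest log2 fold of the 10 genes in size on summed gene reads, though not with ERCC scaling or on medians. It stood at 338.3 CPM (332.1 to 344.6) in CD34-negative and 126.6 CPM (122.6 to 130.7) in CD34-positive cells. The lowest, median and highest cells had 0, 275.4 and 1218 CPM in the first gate and 0, 111.1 and 522.5 CPM in the second. The gates overlapped, yet 10 CD34-negative cells lay above the highest CD34-positive cell and only 5 CD34-positive cells above the CD34-negative median. The log2 fold was -1.41 (-1.48 to -1.34), -0.45 with ERCC scaling, and between -1.48 and -1.31 when each cell was left out in turn.

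Syk, the kinase that binds the phosphorylated ITAMs of the γ chain (ENSMUSG00000021457, plus strand of chr13:52583173-52648792), stood at 367.5 CPM (361.0 to 374.1) and 197.4 CPM (192.4 to 202.4). CD34-negative cells had 0, 212.8 and 2541 CPM as lowest, median and highest value, and CD34-positive cells had 0, 158.4 and 764.5 CPM. The medians lay closer together than the sums: 4 CD34-negative cells lay above the highest CD34-positive one and CD34-negative cell 33 held 14.3% of the reads of its gate. The log2 fold was -0.89 (-0.96 to -0.83), and -0.70 without cell 33. Lyn, the kinase that starts the cascade (ENSMUSG00000042228, plus strand of chr4:3678115-3813122), stood at 125.2 CPM (121.4 to 129.0) and 78.3 CPM (75.2 to 81.5). Its lowest, median and highest cells had 0, 60.2 and 893 CPM in the CD34-negative and 0, 63.2 and 299.2 CPM in the CD34-positive gate. The medians were nearly equal, with a log2 ratio of 0.07, while the summed reads gave -0.67 (-0.77 to -0.57) and -0.47 without CD34-negative cell 38, which held 14.6% of the reads. Of the CD34-negative cells, 5 exceeded the highest CD34-positive cell. Of its annotated exon bases, 6.09% are shared with Gm26857 on the other strand, and the strand setting of the counting is not given in the sources used here.

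The adaptors LAT and LAT2 are membrane scaffolds that Syk phosphorylates, and their folds differed. Lat2 (ENSMUSG00000040751, minus strand of chr5:134600022-134615025) stood at 565.3 CPM (557.3 to 573.4) in CD34-negative and 258.3 CPM (252.6 to 264.1) in CD34-positive cells. The lowest, median and highest CD34-negative cells had 3.80, 476.2 and 1287 CPM, the lowest being cell 10, and the CD34-positive ones had 0, 215.0 and 762.7 CPM. The gates overlapped, with 38 CD34-negative cells above the CD34-positive median and 11 above the highest CD34-positive cell. Its log2 fold was -1.13 (-1.18 to -1.07), -1.14 without cell 10 and, within 2-fold, -0.16 with ERCC scaling. Lat2 shares 36.3% of its exon bases with Rfc2, a replication factor gene on the other strand, so its count is uncertain without the strand setting. Rfc2 itself had 520.7 and 390.2 CPM (log2 fold -0.42).

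Lat (ENSMUSG00000030742, minus strand of chr7:126363824-126369570) stood at 168.7 CPM (164.3 to 173.1) and 156.5 CPM (152.1 to 161.1). Cells ranged from 0 to 613.6 CPM with a median of 120.1 in the CD34-negative and from 0 to 592.4 CPM with a median of 109.4 in the CD34-positive gate. These ranges were alike, and 9 CD34-negative and 6 CD34-positive cells had no Lat read. The log2 fold was -0.11 (-0.19 to -0.03), and 0.85 with ERCC scaling. It turned to 0.04 when the Lat reads of CD34-negative cell 15, which had most, were taken out with its library size kept. With that cell left out wholly, the fold was -0.0006.

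The last pair act on membrane phosphoinositides. Plcg2, the phospholipase Cγ2 that makes the messenger for calcium release (ENSMUSG00000034330, plus strand of chr8:117498291-117635142), was the one signalling gene with a higher level in the CD34-positive gate on gene reads. It stood at 89.1 CPM (85.9 to 92.4) in CD34-negative and 114.3 CPM (110.5 to 118.2) in CD34-positive cells. Cells ranged from 0 to 454.8 CPM with a median of 18.1 in the first gate and from 0 to 605.9 CPM with a median of 50.3 in the second. The log2 fold was 0.36 (0.26 to 0.46) on summed reads and 1.42 on medians, and 13 CD34-negative and 6 CD34-positive cells had no read. Without CD34-positive cell 25, which held 15.1% of the reads, it was 0.16, and without CD34-negative cell 30 it was 0.50, and 1.31 with ERCC scaling. Inpp5d (ENSMUSG00000026288, plus strand of chr1:87620312-87720507) stood at 369.3 CPM (362.8 to 375.9) and 265.1 CPM (259.3 to 271.0). The lowest, median and highest cells had 0, 285.9 and 1034 CPM against 0, 218.1 and 972.5 CPM. These ranges overlapped almost wholly, and the log2 fold was -0.48 (-0.53 to -0.42), which ERCC scaling turned to 0.49.

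**Figure D2:**
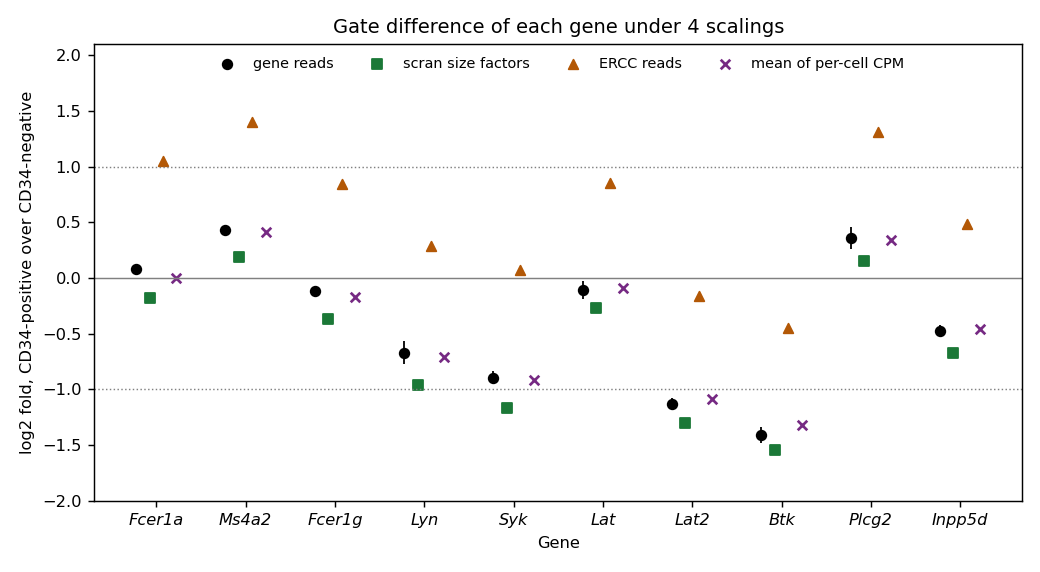
Log2 fold of each gene, CD34-positive over CD34-negative, on 4 scalings: gene reads (circles, with the Poisson 95% interval as a line), scran size factors (squares), ERCC spike-in reads (triangles) and the mean of per-cell CPM (crosses), with dotted lines at 2-fold. Btk and Lat2 lie lowest on all 4 scalings and Ms4a2 and Plcg2 highest. ERCC scaling moves every gene upward by nearly the same amount, which keeps the order of gene reads by construction.

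On gene reads, the CD34-positive gate had lower levels of 7 and higher levels of 3 of the 10 genes (median log2 fold -0.30), or 70% lower beside 41.1% of the 12460 genes tested, those with reads in at least 10 kept cells. With ERCC scaling 2 were lower and 8 higher, with a median of 0.67, or 80% higher beside 87.6% of all genes tested. Btk and Lat2 were past 2-fold, both lower. That is 20% of the 10 genes, where 31.7% of all genes tested were past 2-fold in either direction, 10.1% lower and 21.7% higher, and their median fold was 0.19. The share past 2-fold was thus below that of all genes in either direction, and above it among the lower ones, where it rests on 2 genes. Without CD34-negative cell 10 Btk and Lat2 stayed past 2-fold, beside 31.9% of all genes tested, 21.9% higher and 9.98% lower. Of the 7 signalling genes 6 were lower on gene reads and 2 with ERCC scaling, with medians of -0.67 and 0.29. The 3 chains had medians of 0.08 and 1.05.

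The direction of 6 of the 10 folds depended on the scaling or on single cells, and Ms4a2, Plcg2, Lat2 and Btk kept theirs under the alternatives run. The higher number of gene reads per ERCC read in CD34-positive cells enters here, and scaling by ERCC reads put the median of all genes tested at 1.04. On that scale the folds of Fcer1a, Ms4a2 and Fcer1g were 1.05, 1.40 and 0.84, those of Lyn, Syk, Lat, Plcg2 and Inpp5d were 0.29, 0.07, 0.85, 1.31 and 0.49, and those of Lat2 and Btk, still negative, were -0.16 and -0.45. Past 2-fold were then Fcer1a, Ms4a2 and Plcg2, all higher, beside 54.1% of all genes tested, 51.8% higher and 2.25% lower. With scran size factors Syk, at -1.17, joined Btk and Lat2 past 2-fold, beside 31.6% of all genes tested, 17.5% higher and 14.1% lower. The same 3 genes were past 2-fold with TMM factors, beside 31.7% of all genes tested, 14% lower. The median cell had 14.2 Ms4a2 reads per 1000 ERCC reads among CD34-negative cells and 39.5 among CD34-positive cells, and 1.91 and 1.35 Btk reads. Ms4a2 and Plcg2 lay above the median of all genes with gene reads, scran size factors (median 0.00) and ERCC reads. Fcer1g, Lyn, Syk, Lat, Lat2, Btk and Inpp5d lay below it on the same scales. ERCC scaling multiplies all genes of a gate by the same factor. It therefore keeps the order of gene reads by construction, and differences from the median can change only through the added 1 CPM. Fcer1a lay 0.01 above that median with ERCC reads and below it with gene reads and scran size factors. The difference of Btk from that median was -1.60 with gene reads and -1.49 with ERCC reads, and that of Ms4a2 was 0.24 and 0.36.

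To compare detection, 200000 gene reads were drawn from every cell. All 3 chains were found in 45 of 46 CD34-negative cells, the exception being cell 10 for Ms4a2, and in 46 of 46 CD34-positive cells. Of the signalling genes, Lat2 was found in 46 and 45 cells, Syk in 44 and 44, Inpp5d in 43 and 45, Btk in 41 and 42, Lyn in 40 and 40, and Lat in 35 and 38. Plcg2 differed most, at 28 of 46 CD34-negative cells or 60.9% and 38 of 46 CD34-positive cells or 82.6%, with no test of the difference, since each gate is 1 sample. A median of 9 of the 10 genes was found per CD34-negative cell (range 6 to 10) and of 10 per CD34-positive cell (5 to 10), and all 10 were found together in 17 and 27 cells. Over all genes, and before this drawing, the median cell had reads of 5303.5 genes in the CD34-negative and 7511.5 genes in the CD34-positive gate, and the part of this in the detection of the 10 genes was not tested. Btk was thus found in as many CD34-positive as CD34-negative cells to within 1 cell, although its level was lower there.

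Across cells of a gate, most pairs of the 10 genes had weak rank correlations, and Fcer1a with Fcer1g in CD34-positive cells had the highest Spearman's rho of the pairs in either gate. The correlations here are Spearman's rho of log2(CPM + 1) over 46 cells, which share a plate and the division by gene reads, and they are descriptions with no test. Fcer1a and Fcer1g had a rho of 0.56 in CD34-positive but -0.16 in CD34-negative cells, or -0.10 without cell 10. Fcer1a and Ms4a2 had 0.23 and 0.30, or 0.25 in the latter without cell 10, and Ms4a2 and Fcer1g had 0.18 and -0.02, or 0.05 in the latter without cell 10. Lat had a rho of 0.36 with Fcer1a, 0.33 with Ms4a2 and 0.33 with Fcer1g in CD34-positive cells, against 0.05, 0.29 and -0.17 in CD34-negative cells (0.00, 0.26 and -0.12 without cell 10). Lat2 and Fcer1a had -0.31 in CD34-negative cells, -0.40 without cell 10, and 0.02 in CD34-positive cells. Lyn and Syk, consecutive steps of the cascade, had 0.29 in CD34-positive and -0.06 in CD34-negative cells, or -0.12 in the latter without cell 10. Of the 45 pairs, 42 (CD34-negative) and 41 (CD34-positive) lay within 0.3 of 0. Pearson's r of Fcer1a and Ms4a2 in CD34-negative cells was 0.74 with cell 10 and 0.21 without it. Under ERCC scaling, which divides both genes of a pair by the same number, the 3 chain pairs had 0.64 to 0.70 among CD34-negative cells and 0.42 to 0.74 among CD34-positive cells.

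**Figure D3:**
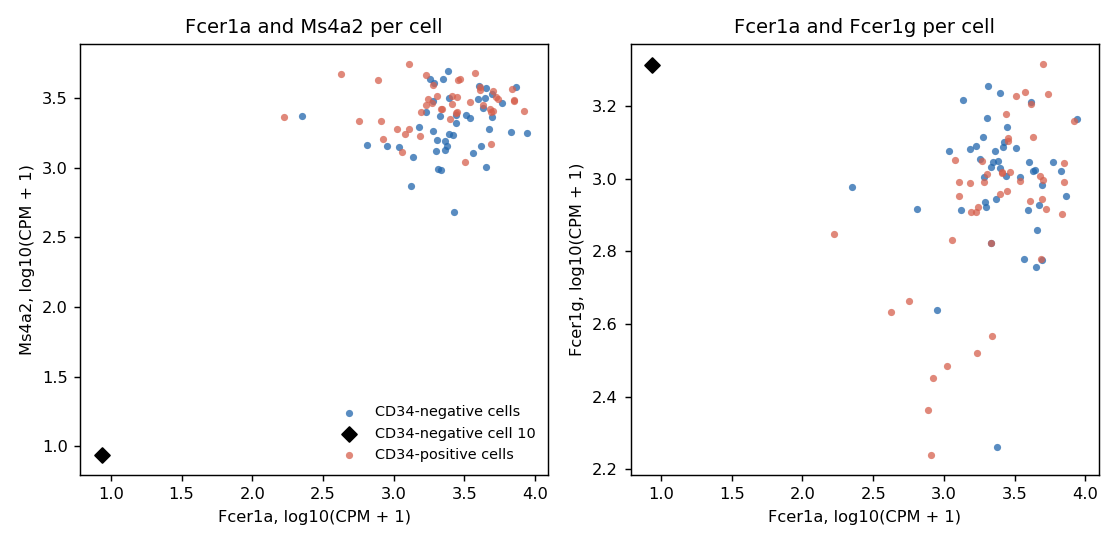
Fcer1a against Ms4a2 (left) and against Fcer1g (right) in single cells, each axis as log10(CPM + 1), with CD34-negative cells in blue, CD34-positive cells in red and CD34-negative cell 10 as a black diamond. Cell 10 stands apart in both panels, and low Fcer1g goes with low Fcer1a among the CD34-positive cells, where rho was 0.56.

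**Figure D4:**
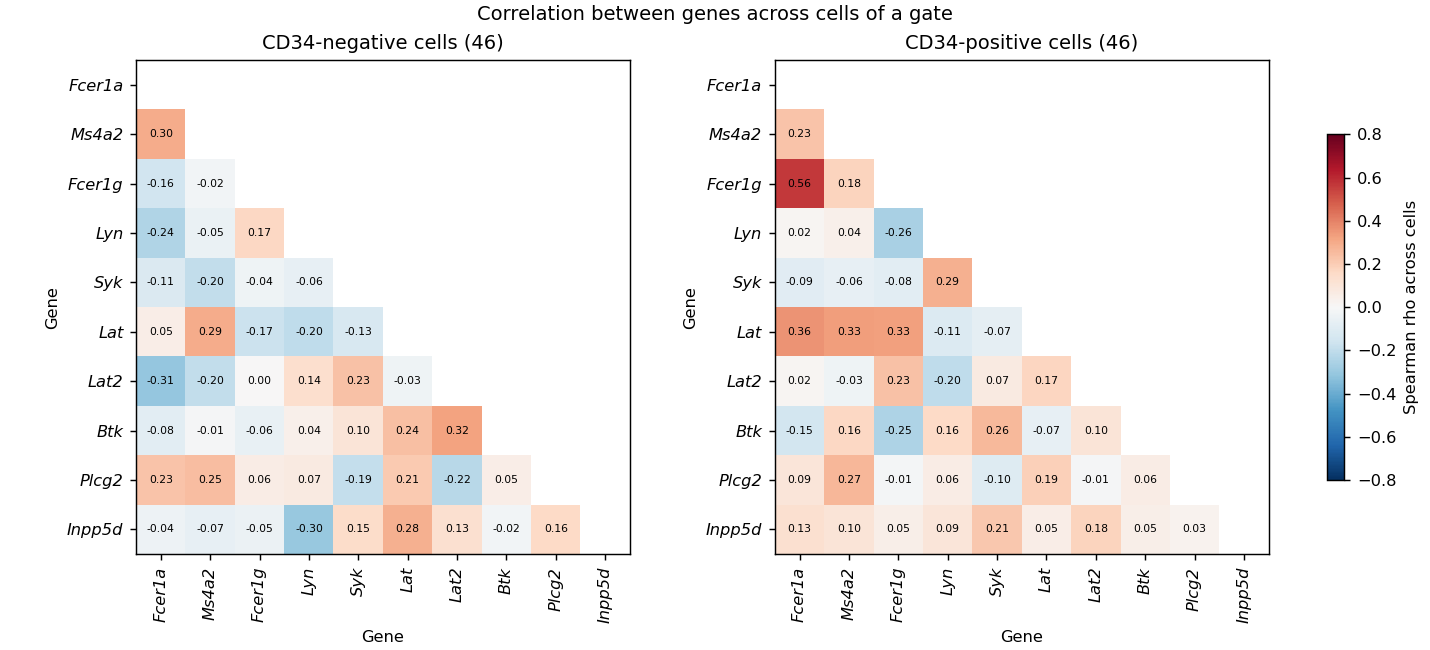
Spearman's rho between the 10 genes across the 46 cells of each gate, CD34-negative on the left and CD34-positive on the right, coloured from blue (negative) to red (positive). Most pairs lie within 0.3 of 0, the highest being Fcer1a with Fcer1g at 0.56 in the CD34-positive gate.

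The genes whose pattern was most like that of a chain were found among 4223 genes with a read in at least 23 of the 46 cells of each gate, by the smaller of the rho values in the 2 gates. For Fcer1a these were the basophil protease genes Prss34 (0.61 in CD34-negative and 0.66 in CD34-positive cells) and Mcpt8 (0.55 and 0.74), and Ldha (0.56 and 0.54), which encodes a lactate dehydrogenase subunit. For Ms4a2 the values were lower, with Ctbp1 (0.40 and 0.39), the unnamed gene ENSMUSG00000103126 (0.45 and 0.38) and Chtf8 (0.37 and 0.54). ENSMUSG00000103126 stood at only 1.41 and 1.73 CPM. Prss34 came close to these with Ms4a2, at 0.45 and 0.37. For Fcer1g the genes were Lrba (0.35 and 0.39), the gene model Gm6169 (0.34 and 0.40) and Tor4a (0.39 and 0.33). All these values are the largest picked from 4223 genes, with no test. Mcpt8 also had a rho of 0.53 with Fcer1g and 0.45 with Lat in CD34-positive cells, against 0.11 and 0.06 in CD34-negative cells. Among CD34-positive cells Kit, the stem cell factor receptor of progenitors and mast cells, had a rho of -0.46 with Lat2, -0.32 with Fcer1g and -0.27 with Fcer1a, and one of 0.28 with Lyn, 0.22 with Plcg2 and 0.16 with Ms4a2. Kit had 3279 reads in that gate, in 25 cells. In the CD34-negative gate it had 6 reads, in 6 cells, too few for a rho to be set beside these. Measures of the libraries moved with some of the genes: in CD34-negative cells the ratio of gene to ERCC reads had a rho of 0.51 with Fcer1a, 0.50 with Plcg2, 0.44 with Ms4a2 and -0.35 with Lat2 (0.49, 0.52, 0.42 and -0.43 without cell 10), and in CD34-positive cells the number of genes with a read had -0.52 with Fcer1g. Their part in these patterns was not tested.

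Numbers in the titles name the cells. For the kept CD34-positive cells, the median Fcer1a level was 1138 CPM over numbers 1 to 6, 2778 CPM over numbers 7 to 42 and 2194 CPM over numbers 43 to 47. Lat2 stood at 45.6, 259.7 and 91.4 CPM in the same order. Both outer blocks held 5 cells. CD34-negative cells of these numbers had median Fcer1a levels of 2063, 2477 and 2424 CPM and median Lat2 levels of 383.2, 499.1 and 524.9 CPM. Other genes differed between the blocks of that gate, such as Inpp5d at 392.6, 301.3 and 32.6 CPM, against 144.6, 234.8 and 78.1 CPM in the blocks of CD34-positive cells. What the numbers stand for is not given in the labels. In cells numbered 7 to 42 alone, Syk had a log2 fold of -1.08 and joined Btk (-1.39) and Lat2 (-1.09) past 2-fold, beside 33% of all genes tested, 10.9% lower.

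Beyond these 10, a list of 73 further genes of the pathway was set beside them, of which 60 had reads in at least 10 kept cells. On gene reads the CD34-positive gate was lower in 42 and higher in 18 of these, and their median log2 fold was -0.41. That is 70% lower, beside 41.1% of all genes tested. Past 2-fold were 15 lower, or 25% beside 10.1% of all genes tested, and 4 higher, or 6.67% beside 21.7%. With ERCC scaling 3 were past 2-fold lower, or 5% beside 2.25%, and 16 higher, or 26.7% beside 51.8%, and with scran size factors 22 were lower and 3 higher, beside 14.1% and 17.5% of all genes tested. With ERCC scaling 44 of the 60 were higher, or 73.3% beside 87.6% of all genes tested, with a median of 0.55, below the median of all genes on that scale. Without CD34-negative cell 10 the median on gene reads was -0.36, with 40 lower and 20 higher, and 14 lower and 5 higher past 2-fold.

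The other Src-family and Tec kinases were grouped with Csk, which belongs to neither family and inhibits the Src-family kinases. This group was lower in 5 of 5 cases on gene reads, or 4 of 5 without cell 10, and its median of -1.04 (-0.08 with ERCC scaling) was the value of Csk. Tec, which gives the Tec kinases their name, stood at 693.8 CPM without and 352.3 CPM with surface CD34 (log2 fold -0.98). With ERCC scaling the folds of this group ran from -0.66 to 0.08. With scran size factors all 5 were past 2-fold lower, beside 14.1% of all genes tested. Among the adaptors and exchange factors 9 of 12 were lower, with a median of -0.36 (0.58 with ERCC scaling). Gab2, the scaffold that binds phosphoinositide 3-kinase, stood at 545.8 and 205.1 CPM (-1.41), and Pag1, which anchors the inhibitory kinase Csk, at 144.5 and 29.2 CPM (-2.27). With ERCC scaling only Pag1, at -1.32, stayed past 2-fold lower among the 12, and 2 were past 2-fold higher. Of all genes tested, 2.25% and 51.8% were. Shc1, an adaptor of the Ras branch, was at 52.2 and 79.8 CPM (0.60).

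Of the lipid and calcium genes 11 of 14 were lower, with a median of -0.46 (0.50 with ERCC scaling) and the protein kinase C gene Prkcd at 752.8 and 278.9 CPM (-1.43). With ERCC scaling their lowest fold was -0.47, with 0 of 14 past 2-fold lower and 2 higher, beside 2.25% and 51.8% of all genes tested. The Ras and MAP kinase branch was mixed, with 6 of 10 lower and a median of -0.05 (0.91 with ERCC scaling), or 5 of 10 and -0.03 without cell 10. Its p38 kinase gene Mapk14 stood at 831.7 and 282.3 CPM (-1.56), and 19 CD34-negative cells lay above the highest CD34-positive cell. With ERCC scaling the lowest fold of this branch was -0.59, with 0 of 10 past 2-fold lower and 4 higher, beside the same 2.25% and 51.8%. Nras was at 62.8 and 134.6 CPM (1.09) and the JNK gene Mapk8 at 2.87 and 13.8 CPM (1.94, and 0.89 with 10 CPM added). On gene reads 2 of the 10 genes of the branch were past 2-fold higher, and with scran size factors 1 was. Of all genes tested, 21.7% and 17.5% were. Negative regulators were the one group whose median on gene reads was above 0, at 0.23, with 6 of 10 or 60% higher, close to the median of 0.19 and the 58.9% higher of all genes tested, and with scran size factors it was -0.05 and with ERCC scaling 1.18. Among them were the ubiquitin ligase gene Cbl at 17.5 and 32.97 CPM (0.87) and the phosphatase gene Ptpn11 at 41.1 and 69.3 CPM (0.74). CD34-negative cell 37 held 28.8% and CD34-positive cell 25 held 25.9% of the Cbl reads of their gates. The fold of Ptpn11 was 1.43 without CD34-negative cell 21, which held 40.4% of the reads of its gate. Pirb, an inhibitory receptor, stood at 68.7 and 5.36 CPM, and its log2 fold of -3.45 on gene reads was the largest in size among the 60 genes. It was found in 19 and 5 cells. Without CD34-positive cell 40, which held 49.7% of the Pirb reads of its gate, the fold was -4.21, without CD34-negative cell 10, the highest of its gate, -3.33, with 10 CPM added -2.36 and with ERCC scaling -2.57.

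The group of other Fc receptors and γ-chain partners was lower in 4 of 4 cases, with a median of -0.93 (0.03 with ERCC scaling, 2 of 4 lower). Fcgr3 was the only Fc receptor gene among these, the others being the IL-3 receptor genes Csf2rb, Csf2rb2 and Il3ra. Fcgr3, an IgG receptor that signals through the same γ chain, stood at 992.9 and 695.6 CPM (-0.51, and 0.45 with ERCC scaling). The β chains of the IL-3 receptor, Csf2rb at 3398 and 1334 CPM (-1.35) and Csf2rb2 at 1566 and 499.97 CPM (-1.64), are near-identical paralogs, so the split of reads between them is uncertain. With ERCC scaling 0 of the 4 genes of this group were past 2-fold, and the lowest fold was -0.68. Of the genes of receptor traffic and membrane partners, the tetraspanin Cd63, a surface marker of degranulation, stood at 710.1 and 801.3 CPM (0.17, and -0.06 with scran size factors). Another tetraspanin, Cd81, was at 18.5 and 80.2 CPM (2.06), and its log2 fold was 2.92 without cell 10, where it reached 1126 CPM, 1.13 with scran size factors and 1.07 as a mean of per-cell CPM. Lgals3, the IgE-binding lectin galectin-3, stood at 683.4 and 150.6 CPM (-2.17), and the phosphatase gene Ptprc (CD45) at 651.4 and 443.2 CPM (-0.55, or -0.44 without cell 10 and 0.41 with ERCC scaling).

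**Figure D5:**
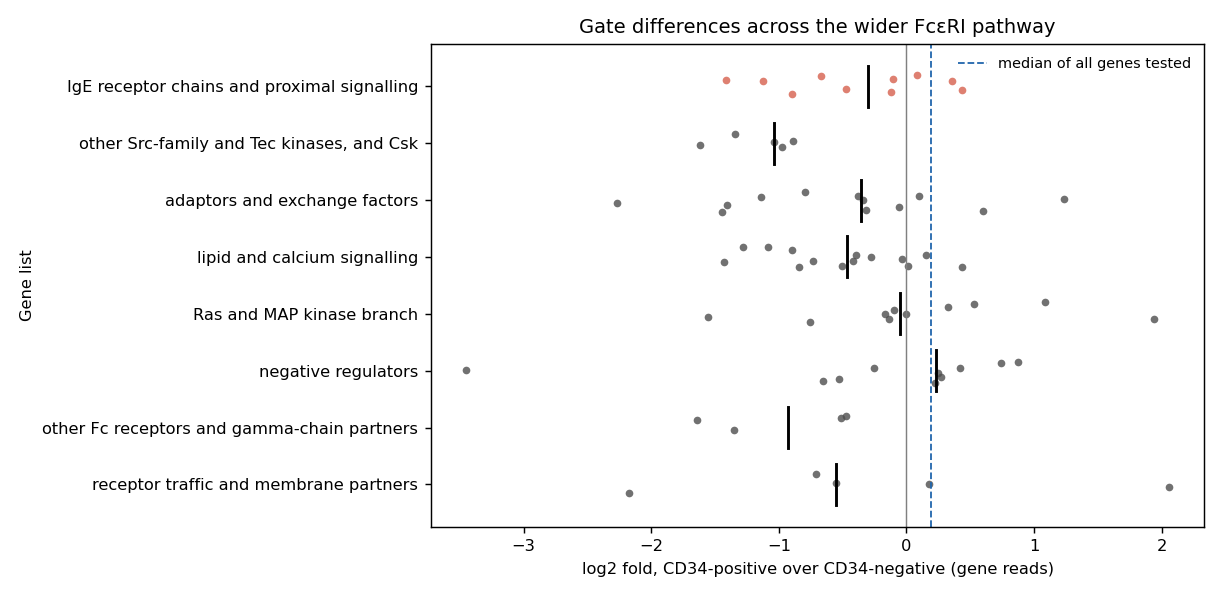
Log2 folds on gene reads, CD34-positive over CD34-negative, of the 10 genes (red) and of the 60 further pathway genes by group (grey), with the median of each group as a black bar and that of all genes tested as a dashed line. The group of the other Src-family and Tec kinases and Csk has the lowest median on gene reads, at -1.04 (-0.08 with ERCC scaling), and the negative regulators are the one group with a median above 0, at 0.23 (-0.05 with scran size factors).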

How the data were processed

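The authors deposited 1 table of whole read counts per gene and cell, not normalized, for 94 index-sorted cells. Per the labels' protocols, cDNA of polyadenylated RNA was amplified with 19 PCR cycles beside ERCC spike-ins and read as 50 bp single-end reads. GSNAP, HTSeq 0.5.3p3 and mm10 are named in the submitters' processing notes, while the annotation release and strand setting are not given in the sources used here. Genes held 32.4% of all reads, ERCC sequences 3.97%, ambiguous reads 7.68%, reads in no gene 33.0% and unaligned reads 22.9%, and only gene reads entered library sizes. The 2 gates held 33444417 and 30031728 gene reads in the kept cells.

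A cell was kept if it had 50000 or more gene reads, 1000 or more genes, under 20% mitochondrial reads and under 50% ERCC reads. Reads were summed per gate and divided by its gene reads (CPM), and folds are log2 of CPM plus 1. Fold intervals set one gate's Poisson bound against the other's. Reads carry no molecular identifiers, so the intervals cover counting error only. No test was run and no cells were clustered. Doublets were not called, as wells received single sorted cells. Symbols came from a table of gene identifiers, and positions and exon lengths from GENCODE M21 on GRCm38. The 10 genes, the further lists and the alternatives were chosen with earlier results of these data known. All 10 genes are named. Of the further pathway genes, the rule named those with 10 CPM in a gate and among the 6 highest or 6 lowest folds, and those over 500 CPM. Some values that this rule calls for are not reported here. Gata2, Csf1r, Cd74 and Rfc2 were named after their values were seen. The fold calculation was tested on simulated data. Alternatives were other cell filters, scalings (scran 1.30.0, edgeR 4.0.16 TMM factors, ERCC reads), pseudocounts, depths, numbered cells and leaving cells out. The calculations used R 4.3.3, scipy 1.17.1 and pandas 2.3.3 under Python 3.11.15.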

Additional observations from a re-analysis of the deposited data

Results flagged for a closer look

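Each gate had 1 cell under 50000 gene reads, and these cells entered no comparison above. In CD34-negative cell 20, with 24565 gene reads, 1 of the 10 genes had more than the 3 reads that a count of 0 allows. That gene was Ms4a2, with 115 reads or 4681 CPM, beside 1 read of Fcer1a and 3 reads of Fcer1g. In CD34-positive cell 3, with 31504 gene reads, 7 of the 10 genes had more than 3 reads. Fcer1a stood at 1714 CPM in it from 54 reads, Ms4a2 at 1651 CPM from 52 reads and Fcer1g at 1047 CPM from 33 reads, all within the range of the kept CD34-positive cells. Lyn and Plcg2 had 0 reads in both cells. With no cell filter, the log2 folds of Fcer1a, Ms4a2 and Fcer1g were 0.08, 0.43 and -0.12.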

How the results depend on the processing

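Across the alternatives run, 2 or 3 of the 10 genes were past 2-fold. Btk and Lat2 were joined by Syk with scran size factors (-1.17), TMM factors (-1.10) and cells numbered 7 to 42, and ERCC scaling gave Fcer1a, Ms4a2 and Plcg2 in their place. The median fold of the 10 genes, -0.30, became -0.52 under scran size factors, -0.51 under TMM factors and 0.67 under ERCC scaling, and -0.35 to -0.27 when each cell was left out in turn. The median of the further list, -0.41, was -0.64, -0.61 and 0.55 under the same scalings, and -0.48 to -0.36 with each cell left out. It was -0.20 when each gene lost the reads of the cell with most of them. That cell stayed in the library size and only its gate lost reads, so each fold moves away from that gate by construction. The median number of genes found per cell was 8 in both gates when 10 reads were required. In CD34-negative cells, ERCC scaling gave correlations of 0.699 for Fcer1a and Ms4a2, 0.666 for Fcer1a and Fcer1g and 0.637 for Ms4a2 and Fcer1g, and Pearson's r was 0.738 for the first pair and -0.194 for the last, or 0.063 without cell 10. In CD34-positive cells, ERCC scaling gave 0.417, 0.739 and 0.443, and scran size factors gave 0.325 for the last pair. The cause of these changes was not tested. Of 140 alternative values of the 10 folds, 79 stayed within the counting interval, 61 left it and 10 changed sign, and of 266 for the further named genes 138 stayed, 128 left it and 4 changed sign. Leaving out CD34-negative cell 10 was added after seeing the data. No paired analysis was possible because each gate is 1 sample, a number shared by 2 cells of different gates marks no pair, and nothing was tested. Plcg2, Lat and Lyn had no read in 13, 9 and 6 CD34-negative cells, and across the 46 cells of that gate the rho of their level with gene reads was -0.0039, 0.24 and -0.24.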
